A study of Mus musculus with 6 samples.

Results

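The expressed long noncoding RNAs (lncRNAs) of mouse liver were taken as the rows of the deposited gene table that lie off the X and Y chromosomes, carry one of the biotypes lincRNA, antisense, processed_transcript or bidirectional_promoter_lncRNA, and are at least 200 bases long. They also had to reach a mean of at least 2 FPKM over the 6 libraries (FPKM are reads scaled to gene length and library depth). Of 54532 genes in the table, 8554 met the conditions on biotype, chromosome and length, and 155 of those met the condition on level. By deposited biotype, 67 were lincRNAs, 57 were antisense RNAs, 25 were processed transcripts and 6 were bidirectional-promoter lncRNAs. The members were chosen by their mean FPKM over all 6 libraries, so their abundance is a description. The rule uses no difference between the groups, but it was written with earlier results of these data known.

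The series holds RNA sequencing of whole liver from 2 groups of mice. In 3 libraries, called HKO, G3bp1 was knocked out in hepatocytes specifically, and 3 libraries, called Flox, came from floxed controls without that knockout. All mice received a high-fat diet for 12 weeks from 6 weeks of age, so no group on standard food was compared. G3BP1 is an RNA-binding protein that helps to assemble stress granules, and the stated aim was to learn its effect on non-alcoholic steatohepatitis, an inflamed form of fatty liver. The labels do not name the Cre line that made the deletion, and the other cells of the liver keep the gene by design. The labels do not say that each library came from an animal of its own, and p-values here refer to the spread among the samples as deposited. Chi-square per degree of freedom of reads sets the spread of 2 libraries beside counting error alone. Between libraries of 1 group it was 28.3 to 74.4. How much of the spread is technical was not tested.

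Long noncoding RNAs are transcripts without a recognised long open reading frame. Some act in the nucleus as scaffolds of RNA and protein bodies, some are spliced carriers whose introns release small nucleolar RNAs (snoRNAs) or microRNAs, and many are transcribed from the other strand of a protein-coding gene or away from its promoter. In liver several lie beside genes of hepatocyte transcription factors, and their levels are usually far below those of the messenger RNAs around them.

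The biotype was not a guarantee that a member is noncoding. Of the 155, 122 could be matched by symbol to RefSeq, which lists 111 as lncRNA, 8 as protein-coding and 3 as pseudogenes. The 8 are 1810058I24Rik (mitoregulin, a small protein of mitochondria), Cct6a (a subunit of the cytosolic chaperonin), Ifi30 (a lysosomal thiol reductase), Ptpmt1 (a mitochondrial phosphatase), Tmem134, Tmem250-ps, Gm39469 and Spata5l1. The 3 pseudogenes are Gm10076, Gm14097 and C4a, the last a relative of complement component 4. The other 33 members, Ndufb1-ps among them, had no match by symbol, so more of them may be protein-coding. All 155 identifiers occur in GENCODE release M21, 152 of them with the deposited biotype, and 19 have a single exon there. Transcripts of 3 members had a close copy elsewhere, meaning 97% identity or more across 80% or more of the length. Gm10076 was 99.48% identical to a transcript of the ribosomal protein gene Rpl41, Gm28901 was up to 99.76% identical to transcripts of 7 genes that include Hnrnpf, and Gm47467 was 97.33% identical to Gm47469. Reads of these 3 members may have been split with their copies, and their values are uncertain for that reason. Strand is not kept by the library kit, and where exons overlap, an antisense lncRNA and the gene across from it cannot be told apart.

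G3bp1 was lower in each HKO library than in each Flox library. Its level was 8.46, 8.46 and 9.10 FPKM in Flox 1 to 3 and 4.66, 4.28 and 4.44 FPKM in HKO 1 to 3, so every library matched its label. Its log2 fold change was -0.83 (SE 0.088), and limma gave an adjusted p of 0.11. Hepatocyte markers were abundant in every library, summing to 51320 to 53550 FPKM in Flox and 44850 to 54490 FPKM in HKO, with 5 of 11 above and 6 below 0 in log2 fold change. Erythroid markers, a sign of blood, were below 0 in 5 of 5 tested and summed to 295 to 333 FPKM in Flox and 136 to 270 FPKM in HKO. Whole reads recovered from the FPKM summed to between 15804115 and 17954066 per library. At a length of 1 kb, 1 FPKM equalled 14.85 to 18.54 reads. The members had a median length of 1125 bases (205 to 20771) and a mean of 13.2 to 2960 reads per library with a median of 96, so the shortest and lowest among them rest on few reads.

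Most members were scarce. The median of their mean levels was 4.63 FPKM, and 31 of 155 reached a mean of 10 FPKM. The members together held between 0.231% and 0.271% of the assigned reads of a library. The 10 most abundant of them held 32.6% to 36.8% of the summed FPKM of the members. That sum was 1550, 1492 and 1326 FPKM in Flox 1 to 3 and 1494, 1219 and 1248 FPKM in HKO 1 to 3. The groups overlapped, with an exact two-sided permutation p of 0.3, where 3 against 3 libraries cannot give less than 0.1.

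AW112010 was the most abundant member and lies on chromosome 19 (chr19:11047612-11055808, minus strand, GRCm38). It is a transcript known from activated immune cells. It stood at 133, 111 and 144 FPKM in Flox and at 187, 125 and 116 FPKM in HKO. HKO 1 was the highest library and the groups overlapped. Markers of Kupffer cells, the resident macrophages of liver, were also highest in HKO 1. Their summed level was 149, 170 and 272 FPKM in Flox and 365, 223 and 275 FPKM in HKO. The other libraries were not in the same order, since HKO 3 was second highest for the markers and low for AW112010. Of these markers 12 of 12 had a log2 fold change above 0, 0 passed the test, and none was at 0 in all libraries. All tested markers of recruited macrophages (4), T and NK cells (3) and B and plasma cells (3) were above 0 too, and both neutrophil markers were below. The part of any of these cells in the level of AW112010 was not tested. In whole tissue more cells of a type and more RNA per cell cannot be told apart.

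BC024386 (chromosome 7) followed with 78.3, 79.9 and 68.5 FPKM in Flox and 68.6, 59.3 and 58.5 FPKM in HKO. The lowest Flox library was just under the highest HKO library, and the log2 fold change was -0.28 (SE 0.122, adjusted p = 0.651 in limma). 0610005C13Rik, whose exons overlap those of the branched-chain aminotransferase gene Bcat2 over 17.4% of their length, stood at 58.4, 53.9 and 41.0 FPKM in Flox and 52.8, 45.1 and 47.4 FPKM in HKO. Bcat2 itself stood at 3.42 to 7.15 FPKM over the 6 libraries. The mitoregulin gene 1810058I24Rik was among the steadiest of the abundant members, with 41.7, 46.3 and 43.3 FPKM in Flox and 45.0, 36.3 and 39.5 FPKM in HKO. Gm20319 shares 49.1% of its exon bases with Il1rap, which encodes the accessory protein of the interleukin-1 receptor. It stood at 45.4, 38.7 and 35.4 FPKM in Flox and 36.4, 37.5 and 39.3 FPKM in HKO. Gm48633, which starts 27587 bases from the start of the apolipoprotein B gene Apob, stood at 45.8, 45.8 and 35.1 FPKM in Flox and 35.3, 35.6 and 33.9 FPKM in HKO. Its 2 highest libraries were Flox 1 and Flox 2, and Flox 3 lay among the HKO libraries. Tmem250-ps stood at 29.8, 30.7 and 21.3 FPKM in Flox and 28, 25.3 and 24.6 FPKM in HKO. Besides Gm26917, Cct6a was the member among the 10 most abundant whose groups did not overlap, with 28.3, 29.7 and 27.6 FPKM in Flox and 25.2, 24.9 and 22.6 FPKM in HKO (limma log2 fold change -0.23, adjusted p = 0.651).

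Loss of G3bp1 in hepatocytes was compared with the Flox state for all 11856 genes that reached 0.5 FPKM in at least 3 libraries, using limma on log2(FPKM + 1). All 155 members were among them. 0 of 155 members passed the threshold of 0.05 after Benjamini-Hochberg adjustment, against 0.00843% of all genes tested, which is 1 gene, lower in HKO. With limma's voom on recovered reads, 0 members passed as well. Before adjustment, 20 members (12.9%) had a p under 0.05, 18 lower and 2 higher in HKO, beside 7.62% of all genes, 4.55% lower and 3.08% higher. That number of members moved with single libraries and with the method: it was 11 without Flox 1, 36 without Flox 3 and 31 without HKO 1, and it was 12 with voom and 53 with array weights, which weight each library by its scatter. HKO and Flox libraries did not overlap in 24 members (15.5%), where 13.3% of all genes tested did not overlap. HKO lay below Flox in 19 of them (12.3%, against 7.21% of all genes) and above it in 5 (3.23%, against 6.06%).

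The fold change was below 0 in 103 members and above 0 in 52, a share of 66.5% below 0 beside 51.2% of all genes tested, and 33.5% above 0 beside 48.8%. The median log2 fold change of the members was -0.12, and that of all genes was -0.005. The scaling between libraries decides the sign of this median. When the FPKM were turned into TPM, which makes the sum equal in each library, the median of all genes moved to 0.14, and 82 members were above 0 and 73 below, with a median of 0.02. Relative to all genes the members' median stayed at -0.12 under TPM, and 58 members lay above the median of all genes there, compared with 53 on the deposited scale. Scaled by assigned reads, 71 were above 0 and 84 below. Single libraries changed its size and not its sign: without Flox 1 the median was -0.05 (68 above 0 and 87 below), without Flox 3 it was -0.21 (44 above 0 and 111 below), and it was below 0 with any 1 of the 6 libraries left out.

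**Figure D1:**
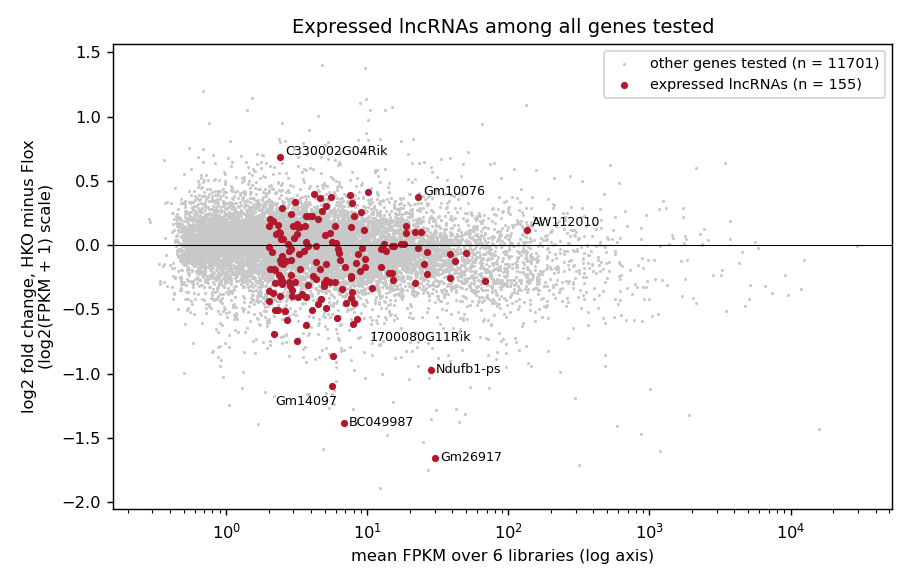
Log2 fold change of each gene (HKO minus Flox, from log2(FPKM + 1)) against its mean FPKM over 6 libraries on a log axis. Red points are the 155 expressed lncRNAs and grey points the 11701 other genes tested. Most red points lie between -0.5 and 0.5 with more below 0 than above, and the lowest is Gm26917 at -1.65.

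By the smallest p, 1700080G11Rik led the members whose HKO libraries all lay below the Flox libraries. It is a lincRNA with 2 exons and 436 bases on chromosome 4 (chr4:127531622-127532885, plus strand), with no overlapping protein-coding gene. Its level was 10.7, 10.2 and 8.60 FPKM in Flox and 5.56, 6.05 and 6.56 FPKM in HKO. In FPKM, the gap between the groups was wider than the range of the HKO libraries and narrower than that of the Flox libraries. The log2 fold change was -0.62 (SE 0.114, adjusted p = 0.58 in limma). It had a mean of 56.8 reads per library. Its within-group SD on the log2 scale was 0.13, below the 0.171 that counting error alone would give. Over the alternatives its fold change ranged from -0.70 to -0.49 and its adjusted p did not go below 0.119. The genes whose log2 levels over the 6 libraries were most like it were Casp9 (an initiator caspase, Pearson r = 0.996), Maob (monoamine oxidase B, r = 0.994) and Fdx1 (ferredoxin, r = 0.994). These are the closest of all genes tested over 6 points, given as a description.

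1810044D09Rik is a lincRNA of 486 bases on chromosome 6. It was the member with the tightest groups among these, at 5.49, 5.27 and 5.26 FPKM in Flox and 3.48, 3.58 and 3.77 FPKM in HKO (limma log2 fold change -0.46, SE 0.085, adjusted p = 0.58). Its values stand for a mean of 35.8 reads per library. The within-group SD on the log2 scale was 0.039, below the 0.197 that counting error alone would give. Groups this tight therefore do not show how precise its values are. Gm12354, a lincRNA of 612 bases on chromosome 4, stood at 4.15, 4.62 and 5.15 FPKM in Flox and at 2.95, 2.15 and 2.91 FPKM in HKO, a log2 fold change of -0.62 (SE 0.127, adjusted p = 0.58 in limma). Its nearest protein-coding start is that of the ubiquitin ligase gene Wwp1, 11206 bases away. The range within each group of Gm12354 was smaller than the gap between them. It had a mean of 36.8 reads per library, and its within-group SD of 0.158 was also below the 0.188 of counting error.

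Gm13522 runs antisense to Neb, the gene of the muscle protein nebulin, and shares 3.5% of its exon bases with it. It stood at 4.44, 3.11 and 2.80 FPKM in Flox and 2.17, 2.07 and 1.61 FPKM in HKO (limma log2 fold change -0.58, adjusted p = 0.58), while Neb stood between 0.465 and 0.953 FPKM. Gm14097, a pseudogene in RefSeq that overlaps exons of Shld1, stood at 4.85, 9.60 and 9.49 FPKM in Flox and 3.24, 1.79 and 4.59 FPKM in HKO. Its lowest Flox library was close to its highest HKO library, and the log2 fold change was -1.10 (SE 0.324, adjusted p = 0.648 in limma). Shld1, which encodes a DNA repair factor, stood between 2.60 and 3.05 FPKM and did not share this difference. 2210417A02Rik, with a mean of 29 reads per library, stood at 3.31, 4.53 and 3.57 FPKM in Flox and 2.67, 2.94 and 2.26 FPKM in HKO (limma log2 fold change -0.40, adjusted p = 0.648).

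In 5 members the HKO libraries all lay above the Flox libraries. Gm12909 starts 946 bases from Mup3, a gene of the major urinary proteins that hepatocytes secrete. It stood at 9.66, 7.06 and 8.93 FPKM in Flox and 13.5, 11.2 and 10.4 FPKM in HKO, a log2 fold change of 0.41 (SE 0.143, adjusted p = 0.648 in limma). Mup3 was far more abundant and went the other way, with 9498, 9159 and 6565 FPKM in Flox and 5799, 6765 and 6723 FPKM in HKO, where Flox 3 lay among the HKO libraries. Gm15343 is antisense to Spatc1l over 21.1% of its exon bases and stood at 4.58, 5.37 and 4.18 FPKM in Flox and 5.81, 7.77 and 5.73 FPKM in HKO (limma log2 fold change 0.38, adjusted p = 0.648). Tug1, a long and conserved lncRNA, stood at 3.66, 2.86 and 3.42 FPKM in Flox and 3.69, 4.61 and 3.86 FPKM in HKO (limma log2 fold change 0.23, SE 0.118, adjusted p = 0.678). The highest Flox and the lowest HKO library of Tug1 were 3.66 and 3.69 FPKM, so the separation is narrow. Gm15318, antisense to Tff1, a gene of the trefoil factors, stood at 4.83, 3.81 and 4.70 FPKM in Flox and 4.95, 4.83 and 7.69 FPKM in HKO. HKO 3 held most of that difference. The fifth was the snoRNA host Gas5, described below with the other hosts.

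**Figure D2:**
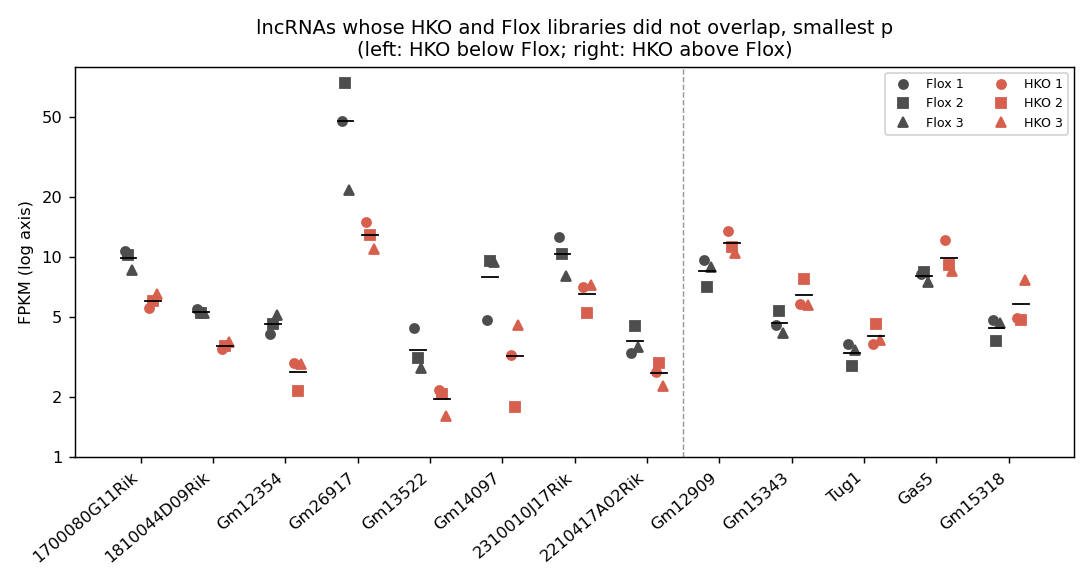
FPKM on a log axis in each of the 6 libraries for the 8 lncRNAs with the smallest p among those with HKO below Flox (left of the dashed line) and the 5 with HKO above Flox (right). Symbols are single libraries, short lines are group means of 3. Gm26917 spans 11 to 73.7 FPKM, while the groups of 1810044D09Rik are each within 0.3 FPKM.

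The levels of the members differed between libraries of 1 group. Centred on each gene's mean, the median log2 level of the members was 0.18, 0.08 and -0.08 in Flox 1 to 3 and 0.01, -0.13 and -0.08 in HKO 1 to 3. Flox 1 was the highest library of 51 members and the lowest of 3, and HKO 2 was the lowest of 41. Flox 3 was the lowest of 33 members and the highest of 11, numbers close to the 38 and 12 of HKO 3. On the first principal component of the members, with 36.8% of their variance, Flox 1 and Flox 2 lay at 3.03 and 3.76. Flox 3 and HKO 1 lay close together there at -0.76 and -0.99, and HKO 2 and HKO 3 at -2.89 and -2.15. The second, with 25.5%, set HKO 1 apart at 4.38, with the other libraries between -1.99 and 0.34.

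Short protein-coding genes varied over the libraries in a like way. Protein-coding genes over 500 and up to 1000 bases (n = 242) had centred medians of 0.20, 0.22 and -0.14 in Flox 1 to 3 and 0.11, -0.22 and -0.18 in HKO 1 to 3, and those over 4000 bases (n = 5496) lay between -0.05 and 0.05 in every library. Their median log2 fold changes were -0.20 and 0.03. Members over 500 and up to 1000 bases (n = 43) had a median of -0.15, those over 1000 and up to 2000 bases (n = 45) one of -0.19 beside -0.09 in protein-coding genes of that length (n = 1281), and the 14 members over 4000 bases one of -0.12. The 27 members of up to 500 bases had a median of -0.03, with 37.0% of them above 0. Protein-coding genes of that length (n = 40) had a median of -0.235, with 32.5% above 0. Over all genes tested the median was -0.041 up to 500 bases and -0.088 over 500 and up to 1000 bases. The part of length and library in the members' fold changes was not tested. Members also scattered more than coding genes of similar level: at a mean of 2 to 20 FPKM, the median within-group SD on the log2 scale was 0.263 over 139 members and 0.148 over 5638 protein-coding genes. Counting error alone would give 0.129 and 0.059.

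**Figure D3:**
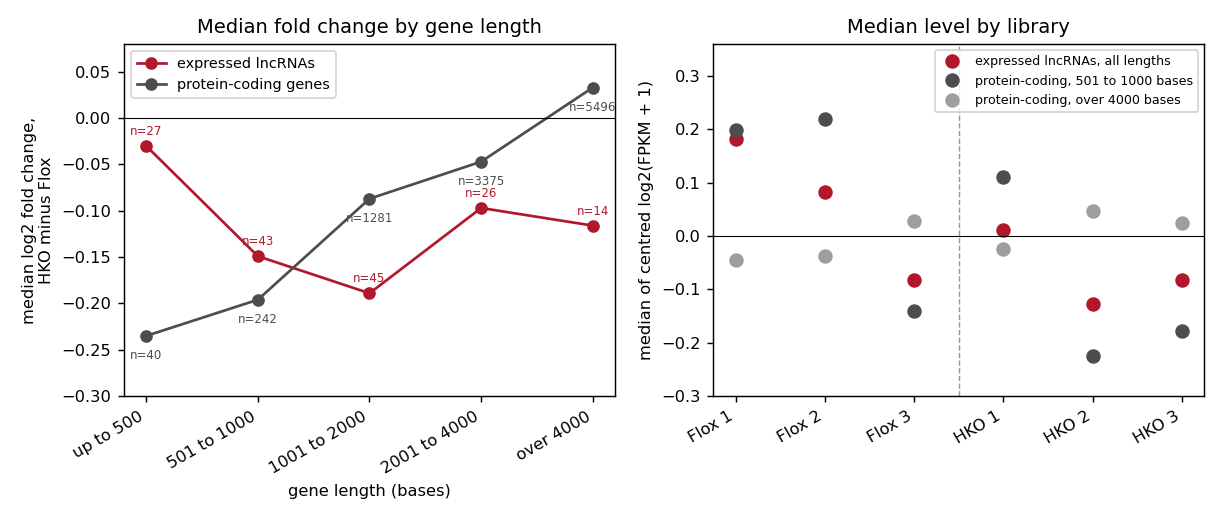
Left, median log2 fold change (HKO minus Flox) by gene length for the expressed lncRNAs (red) and protein-coding genes (dark grey), with the number of genes at each point. Right, median of log2(FPKM + 1) centred on each gene's mean, by library, for the members, for protein-coding genes over 500 and up to 1000 bases and for those over 4000 bases. Members were highest in Flox 1 at 0.18, and short coding genes were high in Flox 1, Flox 2 and HKO 1.

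A few members differed many times over between libraries of the same group. Gm26917 is a single-exon lincRNA of 3329 bases on chromosome 17 (chr17:39843013-39846341, plus strand). It stood at 47.8, 73.7 and 21.6 FPKM in Flox and at 15, 12.8 and 11 FPKM in HKO. All 3 Flox libraries were above the HKO libraries, but Flox itself spanned 21.6 to 73.7 FPKM, and the log2 fold change of -1.65 (SE 0.413) had an adjusted p of 0.58 in limma. A row annotated as ribosomal RNA, CT010467.1, begins 11 bases beyond its end, and stood at 2080, 367 and 1624 FPKM in Flox and 362, 400 and 402 FPKM in HKO. In both rows Flox 1 and Flox 3 were above every HKO library. Flox 2 was the highest library of Gm26917, while for the ribosomal row it lay among the HKO libraries. How much of the value of Gm26917 comes from ribosomal RNA precursors was not tested.

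Gm10076, the Rpl41-like pseudogene, had the largest range of all members, with 11.4, 8.77 and 30.1 FPKM in Flox and 65.3, 5.77 and 17.1 FPKM in HKO. Both the highest and the lowest library were in HKO, and its fold change of 0.37 became -0.49 without HKO 1. BC049987, a lincRNA on chromosome 9 whose start lies 995 bases from that of the trehalase gene Treh, stood at 12.7, 15.9 and 3.40 FPKM in Flox and 2.06, 2.35 and 4.60 FPKM in HKO. Flox 1 and Flox 2 were high and Flox 3 lay inside the HKO range (limma log2 fold change -1.38, SE 0.524, adjusted p = 0.648). Treh stood at 1.05, 1.32 and 0.697 FPKM in Flox and 0.385, 0.585 and 0.790 FPKM in HKO, so Flox 1 and Flox 2 were its highest libraries too. C330002G04Rik was near 1 FPKM in most libraries and at 7.60 FPKM in HKO 1, with 1.68, 1.41 and 0.811 FPKM in Flox and 2.33 and 0.709 FPKM in HKO 2 and HKO 3. Gm15690, which shares 32.6% of its exon bases with the serine dehydratase gene Sds, stood at 7.68, 0.779 and 3.03 FPKM in Flox and 1.96, 1.80 and 3.12 FPKM in HKO. Its fold change of -0.29 became 0.28 without Flox 1.

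Ndufb1-ps lies on chromosome 12, is annotated as a bidirectional-promoter lncRNA and is named for a subunit of respiratory complex I. It was not matched by symbol to RefSeq, so whether it is protein-coding was not checked. Ndufb1-ps was low in 2 libraries. It stood at 32.8, 39.6 and 36.8 FPKM in Flox and at 35.9, 11.3 and 14.1 FPKM in HKO, so HKO 1 was level with Flox. With all libraries the log2 fold change was -0.97 (SE 0.392), at an adjusted p of 0.648 by limma. Without HKO 1 it was -1.45, and the adjusted p was 0.0456 in limma, which made it the single member to pass under any alternative. Cpsf2, the polyadenylation factor gene on the other strand, shares 12.7% of the exon bases of Ndufb1-ps and stood between 3.81 and 5.27 FPKM. The mitochondrial transfer RNA gene mt-Tp, a very short gene, had the same 2 low libraries, with 1281, 1379 and 1235 FPKM in Flox and 1378, 377 and 406 FPKM in HKO. The short pseudogene Rpl38-ps2 (113, 131 and 118 FPKM in Flox, 115, 50.6 and 51.2 FPKM in HKO) did so as well. The longer protein-coding genes Tor1a and Dbi had these 2 low libraries too, with a smaller drop. Tor1a (1995 bases), whose levels over the 6 libraries were the most like those of Ndufb1-ps (Pearson's r 0.998), stood at 25.4, 26.3 and 25.8 FPKM in Flox and 25.6, 21.5 and 22.1 FPKM in HKO. Dbi (1422 bases) stood at 393, 410 and 382 FPKM in Flox and 383, 261 and 289 FPKM in HKO. Ndufb1-ps and these 4 genes were set beside each other after their values were seen. The 4 were picked from the genes most like Ndufb1-ps among all genes tested (Pearson's r 0.99 to 0.998). Their shared low libraries follow from that choice.

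Among the members 8 hold a snoRNA or small Cajal body RNA gene inside on the same strand: Cct6a, 2410006H16Rik, Epb41l4aos, Snhg8, Gas5, Snhg6, 1110038B12Rik and Zfas1. Host genes of this kind often begin with a run of pyrimidines, the feature that also marks messenger RNAs of ribosomal proteins, and their spliced RNAs are known targets of nonsense-mediated decay. The start regions of 4 hosts are printed as examples that hold such a run, and starts without a run are not printed. Each window holds 20 bases before and 30 bases from the RefSeq start, 5′ to 3′ on the strand of the RNA (RefSeq, GRCm38.p6), and capitals mark a run of at least 5 bases made only of C and T that begins within 5 bases of the start.
2410006H16Rik, chr11:62602857-62602906, plus strand: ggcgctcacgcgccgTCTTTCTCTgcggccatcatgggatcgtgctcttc
Snhg8, chr3:123508307-123508356, minus strand: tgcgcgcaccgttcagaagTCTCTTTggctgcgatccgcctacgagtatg
Gas5, chr1:161035146-161035195, plus strand: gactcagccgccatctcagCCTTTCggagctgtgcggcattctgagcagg
1110038B12Rik, chr17:34952442-34952491, minus strand: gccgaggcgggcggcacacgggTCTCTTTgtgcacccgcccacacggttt
The runs are 9, 7, 6 and 7 bases long. Gas5 has a further listed start without a run, 179 bases from its GENCODE start, where the printed one is 744 bases away. The listed starts of Cct6a and Zfas1 have none by this definition. Snhg6 and Epb41l4aos were not matched. Such a run is present at 20.3% of the 32817 RefSeq starts and at 17.3% of the 150 starts of members.

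Of the 8 hosts, 0 passed the test. HKO 1 was the highest library in 7 of the 8, against 26 of the 147 other members. The exception was Cct6a, whose values are given above. It was highest in Flox 2, and its HKO libraries lay below its Flox libraries without overlap. Gas5 stood at 8.24, 8.45 and 7.52 FPKM in Flox and 12.1, 9.13 and 8.51 FPKM in HKO. Its groups did not overlap, by a margin of less than 0.1 FPKM between Flox 2 and HKO 3, and the log2 fold change was 0.25 (SE 0.138, adjusted p = 0.685 in limma). Snhg8 stood at 12.6, 11.6 and 5.86 FPKM in Flox and 16, 6.74 and 5.31 FPKM in HKO. Flox 3, HKO 2 and HKO 3 formed its low end. Snhg6 stood at 7.50, 10.9 and 8.72 FPKM in Flox and 11.9, 3.87 and 5.13 FPKM in HKO, so the HKO libraries lay on both sides of Flox. Epb41l4aos did likewise, with 14.4, 18.2 and 11.4 FPKM in Flox and 24.9, 9.06 and 12.7 FPKM in HKO.

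2410006H16Rik stood at 19.2, 18.2 and 14.9 FPKM in Flox and 28.4, 12.8 and 19.7 FPKM in HKO. Zfas1 stood at 3.33, 2.55 and 2.30 FPKM in Flox and 4.52, 2.39 and 2.71 FPKM in HKO, and 1110038B12Rik at 3.38, 3.27 and 2.43 FPKM in Flox and 4.23, 2.38 and 3.34 FPKM in HKO. The groups of these 3 overlapped. The median of the 8 hosts, centred on each gene, was 0.07, 0.11 and -0.25 in Flox 1 to 3 and 0.55, -0.32 and -0.12 in HKO 1 to 3. Cytosolic ribosomal protein genes, a list added after the values of the hosts were seen, were also highest in HKO 1: the centred median of 75 tested genes was 0.05, 0.09 and -0.22 in Flox and 0.30, 0.02 and -0.18 in HKO. What sets HKO 1 apart was not tested.

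**Figure D4:**
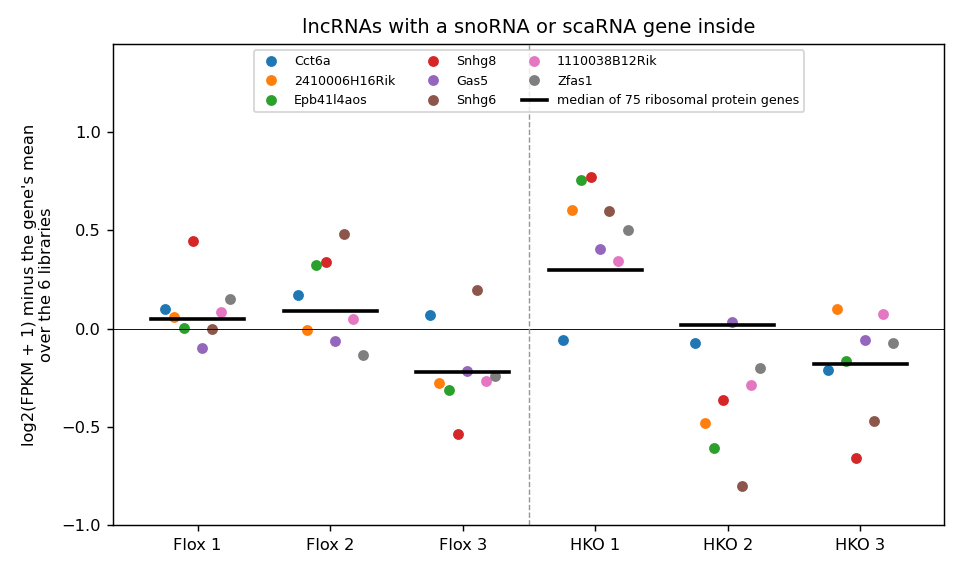
Log2(FPKM + 1) minus the gene's mean over the 6 libraries, by library, for the 8 lncRNAs with a snoRNA or small Cajal body RNA gene inside. Black lines are the median of 75 ribosomal protein genes. In HKO 1 the points of 7 hosts lie above all their other libraries, and the line is at 0.30, its highest value.

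Of a wider list of 22 snoRNA host lncRNAs, 11 were tested, 0 passed, 6 had a fold change above 0 and 5 below, and the median was 0.02 beside -0.005 over all genes. Snhg12, Snhg5 and Snhg1, with means of 1.65, 1.49 and 1.35 FPKM, fell short of the level that defines the members. Of the proteins of box C/D and H/ACA snoRNA particles, 0 of 14 tested passed, 4 were above and 10 below 0, and the median was -0.02. Without overlap, HKO lay above Flox in 3 and below it in 0, beside 6.06% and 7.21% of all genes tested. The smallest p-values of this list belonged to Nop56, a core protein of box C/D particles, at 2.57, 2.60 and 3.15 FPKM in Flox and 3.85, 3.33 and 3.70 FPKM in HKO. Dkc1, the pseudouridine synthase of H/ACA particles, followed at 3.27, 3.06 and 3.83 FPKM in Flox and 4.16, 4.06 and 3.85 FPKM in HKO. Neither passed (adjusted p = 0.648 and 0.678 in limma), although their groups did not overlap.

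Malat1 and Neat1 are nuclear lncRNAs from neighbouring genes on chromosome 19. Malat1 is retained in nuclear speckles, and Neat1 is the scaffold of paraspeckles. Malat1 stood at 16.8, 14.4 and 17.3 FPKM in Flox and 10.7, 15 and 16 FPKM in HKO. HKO 1 was its lowest library and the other 5 lay close together (limma log2 fold change -0.22, SE 0.161, adjusted p = 0.723). Neat1 stood at 3.26, 5.38 and 1.99 FPKM in Flox and at 2.25, 2.39 and 2.23 FPKM in HKO. The spread was in Flox, where Flox 3 lay below all HKO libraries (limma log2 fold change -0.40, SE 0.255, adjusted p = 0.701). Of 15 tested paraspeckle protein genes, 0 passed, 8 were above 0 and 7 below, and the median was 0.002. The 2 with the smallest p differed in opposite directions. Taf15, an RNA-binding protein, stood at 14.7, 15.8 and 13.4 FPKM in Flox and 12.8, 9.63 and 10.3 FPKM in HKO. Sfpq, a core paraspeckle protein, stood at 10.3, 10.4 and 13.4 FPKM in Flox and 14.3, 14.8 and 14.8 FPKM in HKO. Both had non-overlapping groups and an adjusted p of 0.648 in limma.

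A microRNA gene lies inside 2 members, Mir22hg and Gm12718. Mir22hg carries miR-22, a microRNA abundant in liver, and the mature sequences (RefSeq, GRCm38.p6, plus strand) are given with the seed, bases 2 to 8, in capitals.
miR-22-5p, chr11:75463734-75463755: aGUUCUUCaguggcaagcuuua
miR-22-3p, chr11:75463772-75463793: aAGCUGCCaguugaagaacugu
The 2 arms have different seeds. The host RNA stood at 18.8, 18.4 and 12.9 FPKM in Flox and 14.2, 14.8 and 11.6 FPKM in HKO. Flox 1 and Flox 2 were the highest and Flox 3 lay inside the HKO range (limma log2 fold change -0.27, SE 0.168, adjusted p = 0.689). Its exons overlap those of Tlcd2 on the same strand over 10.7% of their length, and Tlcd2, a membrane protein gene, stood at 88.1, 107 and 71.4 FPKM in Flox and 44.6, 68.6 and 84.3 FPKM in HKO. The mature microRNAs were not measured by this assay. Of the list of microRNA hosts 3 were tested and 0 passed. Imprinted lncRNAs were scarce in these livers: of a list of 10, Peg13 alone was tested, at 0.983 to 1.64 FPKM, and H19, abundant in fetal liver, stood between 0.0274 and 0.307 FPKM.

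The members include lncRNAs beside genes of liver transcription factors. Hnf4aos lies across from Hnf4a, a master regulator of hepatocytes, without shared exons. It stood at 7.09, 3.81 and 5.80 FPKM in Flox and 5.14, 3.27 and 3.22 FPKM in HKO (limma log2 fold change -0.42, SE 0.229, adjusted p = 0.685), and the groups overlapped. Hnf4a stood at 103, 113 and 111 FPKM in Flox and 134, 121 and 117 FPKM in HKO, with HKO above Flox and an adjusted p of 0.697 in limma.

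Prox1os stood at 12.0, 8.21 and 6.47 FPKM in Flox and 7.56, 8.76 and 8.34 FPKM in HKO, so the Flox libraries lay on both sides of HKO. Prox1, a regulator of hepatocyte identity, stood at 10.2, 10.2 and 16.5 FPKM in Flox and 16.7, 17.4 and 14.8 FPKM in HKO. Flox 3 was the lowest library of Prox1os and among the high libraries of Prox1. 9030622O22Rik, whose start is 6766 bases from that of Foxa2, was the steadiest of these, with 5.26, 5.73 and 5.66 FPKM in Flox and 6.54, 5.56 and 5.0 FPKM in HKO. Over this list 0 of 4 tested passed, 3 were below 0 and the median was -0.19.

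Of the 155 members, 87 overlapped a protein-coding gene or started within 1000 bases of one in the opposite direction, and 68 did neither. Exons overlapped on opposite strands for 48 members, gene bodies without exons for 20, and 21 had a divergent start, where a member can have more than 1 neighbour. In 85 pairs both partners were tested. The fold changes had the same sign in 47 of them: 28 with both below 0 and 19 with both above. In 27 pairs the lncRNA was below 0 and its neighbour above, and in 11 the reverse. Pearson's r across the 85 pairs was 0.02, a description over genes that share the libraries. Within the 45 tested antisense pairs with overlapping exons, where unstranded reads can be shared, r was 0.08 and 27 had the same sign. The 3 tested pairs on the same strand also overlap in exons, and 2 of them had the same sign.

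**Figure D5:**
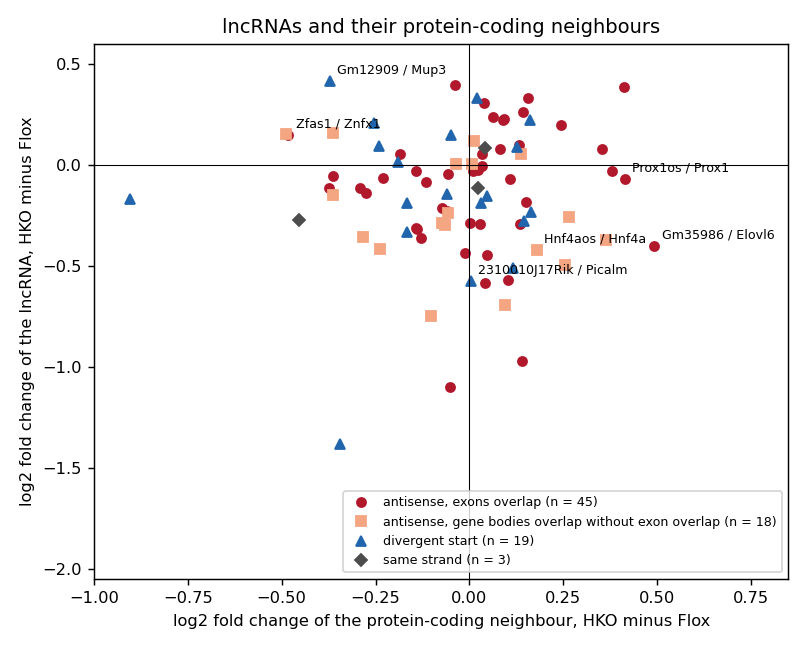
Log2 fold change (HKO minus Flox) of each lncRNA against that of its protein-coding neighbour, for 85 pairs in which both were tested. Colour and shape give the arrangement of the pair. The points fill all 4 quadrants, with 47 of 85 pairs of the same sign.

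Pairs with well-known liver genes show the range, and the pairs named here were picked with their values in view. Gm36172 starts 135 bases from Arg1, the urea cycle arginase. It stood at 5.94, 4.84 and 4.77 FPKM in Flox and 5.69, 4.64 and 6.57 FPKM in HKO, beside 744, 677 and 547 FPKM and 464, 530 and 678 FPKM for Arg1. Gm35986 starts 33 bases from Elovl6, a fatty acid elongase, with which it shares 4.3% of its exon bases. It stood at 2.89, 1.97 and 3.02 FPKM in Flox and 0.716, 0.990 and 4.94 FPKM in HKO, and Elovl6 at 4.62, 4.67 and 20.1 FPKM and at 4.52, 9.97 and 30 FPKM. HKO 3 and Flox 3 were the highest libraries of both genes. Gm28836 lies across from the glutathione transferase gene Gsta3 without shared exons and stood at 2.06, 1.60 and 2.82 FPKM in Flox and 3.21, 2.27 and 2.05 FPKM in HKO. Gsta3 stood at 412, 337 and 394 FPKM in Flox and 253, 273 and 287 FPKM in HKO, a separation that the lncRNA did not share (adjusted p of Gsta3 = 0.58 in limma).

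In divergent pairs the lncRNA and the coding gene start from the 2 sides of 1 promoter region, and their levels need not be alike. 2310010J17Rik starts 229 bases from Picalm, a clathrin assembly gene, in GENCODE. It stood at 12.5, 10.4 and 7.99 FPKM in Flox and 7.11, 5.27 and 7.25 FPKM in HKO (limma log2 fold change -0.57, SE 0.179, adjusted p = 0.648), and its groups did not overlap. Picalm stood at 5.93, 5.59 and 6.69 FPKM in Flox and 5.53, 6.32 and 6.40 FPKM in HKO, with a log2 fold change of 0.004. 2610507I01Rik, a further example picked with its values in view, starts 101 bases from Mrpl55, a gene of the mitochondrial ribosome. Its levels were 4.69, 3.47 and 4.16 FPKM in Flox and 5.72, 5.07 and 3.93 FPKM in HKO, and Mrpl55 at 22.1, 22.5 and 18.7 FPKM in Flox and 17.6, 17.4 and 17.5 FPKM in HKO. The lncRNA overlapped between the groups where its partner did not.

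The stretch between the starts of these 2 pairs is printed because both directions of transcription leave from it. It is given 5′ to 3′ on the strand of the lncRNA (GRCm38.p6). The start of the lncRNA is that of RefSeq, and the start of its partner is that of GENCODE. The 2 sources place the start of the lncRNA 48 and 46 bases apart in the 2 pairs. Capitals mark GGGCGG and its complement CCGCCC, the box that transcription factor Sp1 can bind.
2310010J17Rik and Picalm, chr7:90129937-90130186, minus strand: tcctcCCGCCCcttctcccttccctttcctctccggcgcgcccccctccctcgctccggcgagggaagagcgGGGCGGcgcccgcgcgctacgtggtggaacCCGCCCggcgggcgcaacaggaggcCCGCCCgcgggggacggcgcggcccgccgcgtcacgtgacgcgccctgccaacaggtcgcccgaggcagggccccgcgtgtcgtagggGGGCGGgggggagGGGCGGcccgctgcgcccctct
2610507I01Rik and Mrpl55, chr11:59202432-59202485, minus strand: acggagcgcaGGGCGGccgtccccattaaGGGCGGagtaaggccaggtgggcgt
The first is the 250 bases before the lncRNA start out of 276 between the starts, with 80.4% G and C and 6 matches on either strand. The second is the whole 54 bases, with 70.4% G and C and 2 matches. The same box, searched on both strands, occurs in 32.7% and 17.2% of windows of equal length and place at the 32817 RefSeq starts, whose median content of G and C is 52.4% and 55.6%. Neither stretch holds CCAAT or its complement ATTGG.

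Some spliced lncRNAs are degraded in the cytoplasm by nonsense-mediated decay, and some nuclear ones by the exosome, so genes of both systems were set beside the members. Of 17 nonsense-mediated decay factors tested, 0 passed, 12 were above 0 and 5 below, with a median of 0.08. Of all genes tested 48.8% were above 0, and their median was -0.005. Smg1, the kinase of that pathway, stood at 1.71, 1.20 and 2.21 FPKM in Flox and 1.88, 2.66 and 2.33 FPKM in HKO. Gspt1, a translation termination factor, stood at 12.4, 11.3 and 15.1 FPKM in Flox and 12.8, 16.9 and 16.7 FPKM in HKO. The groups of Smg1 and of Gspt1 overlapped. Of 16 tested genes of the nuclear exosome and its adaptors, 0 passed, 6 were above 0 and 10 below, with a median of -0.03. Exosc5, a ring subunit, stood at 5.40, 6.06 and 4.70 FPKM in Flox and 4.38, 4.17 and 4.23 FPKM in HKO, without overlap (adjusted p = 0.648 in limma). Dis3, a catalytic subunit, stood at 0.680, 0.877 and 1.04 FPKM in Flox and 0.909, 1.24 and 1.20 FPKM in HKO.

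At the edge of the rule, Gm17251 and Gm15611 were just inside with means of 2.0022 and 2.0074 FPKM, and Gm42047 and 4833411C07Rik just outside with 1.9842 and 1.9687 FPKM.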

How the data were processed

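The authors deposited 1 table of FPKM per gene and library for 6 liver RNA-seq libraries, with a gene length in bases beside each value. Per the submitters' processing notes the builds were GRCm38 and mm10. The sources used here do not give the aligner, the counter or the annotation. The NEBNext Ultra RNA kit is named per the labels' protocols. From the deposited FPKM and lengths, whole reads were recovered within 0.02 reads for 100% of the values. The members and the gene lists were chosen with earlier results of these data known. Differences (HKO minus Flox) were tested by limma 3.58.1 under R 4.3.3 with statmod 1.5.0, on log2(FPKM + 1) with trend and robust moderation, two-sided, over the 11856 genes that reached 0.5 FPKM in 3 or more libraries. P-values were adjusted by Benjamini-Hochberg with a threshold of 0.05. The scale understates fold changes of low genes. Group sizes are 3 and 3 libraries. Tests were tried on simulated data first.

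Named are G3bp1, the 10 most abundant members, up to 8 members in each direction with the smallest p among those without overlap, the 5 with the largest range over the libraries, members on the lncRNA lists, members that pass, the 2 features on each side of the level threshold, overlapping or nearest coding genes, up to 2 genes per protein list and the 3 genes most like the first member. Ndufb1-ps is also described for its call without 1 library. Alternatives were a pseudocount of 0.1, other filters, TPM, quantile normalization, scaling by assigned reads, voom on recovered reads, array weights, a replicate block and leaving out each library. Copies were found with blastn 2.17.0 on GENCODE M21 transcripts. A value of 0 allows up to 3 reads. Same-numbered libraries were not treated as pairs. A lncRNA and coding gene pair that the naming rule covers is not reported here.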

Additional observations from a re-analysis of the deposited data

How the results depend on the processing

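Fold changes of 25 members were recomputed under 15 alternatives. Of the 375 values, 372 kept their sign and their side of the threshold, 2 changed sign and 1 passed the threshold. Without HKO 1, Gm10076 went to -0.49 (range -0.49 to 1.16 with a library left out) and Ndufb1-ps passed at -1.45 (adjusted p = 0.0456 in limma), and without Flox 1, Gm15690 went to 0.28 (range -0.87 to 0.28). The number of members that passed was 0 in all fits but that without HKO 1, where it was 1, so it ranged from 0 to 1 with a library left out. Their median log2 fold change ranged from -0.21 to -0.05 with 1 library left out and was 0.022 under TPM. Over all genes tested, the number lower in HKO was 0 without a filter, 2 at a mean of at least 2 FPKM, 3 with voom, 3 with array weights and 0 with the replicate block, and it ranged from 0 to 12 with a library left out, the 12 being without HKO 1. The number higher was 0 in the other fits and 1 without HKO 1, a range of 0 to 1. G3bp1 passed with voom (-0.95, adjusted p = 0.0433 in limma) and with array weights (-0.82, adjusted p = 0.0275 in limma). Members of the 9 gene lists passed in none of these fits. The cause of these changes was not tested.

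Deviations of same-numbered Flox and HKO libraries from their group means correlated at 0.021, 0.015 and 0.07 across genes, and 2 of 3 Flox libraries correlated best with the HKO library of their number. The fit with the replicate block called 0 genes higher and 0 lower. Members with few reads, down to a mean of 13.2 per library, carry counting error that limits what 3 libraries a group can show.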
